A study of Homo sapiens with 12 samples.

Results

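OSGIN1, GCKR, HPD and NMU are 4 of the 61541 Ensembl genes in an RNA-seq table of K562 cells, an established line of BCR::ABL1-positive chronic myeloid leukemia. They were chosen by name for their large differences in level in cells treated with MLN4924, so the size of those differences is a description here and was not tested. The table covers 4 groups of 3 libraries, all K562 cells harvested after 12 h: control cells without drug, cells with 25 µM MLN4924, cells with 0.5 µM imatinib, and cells with both drugs, called imatinib + MLN4924. Imatinib blocks the ABL1 kinase, and MLN4924 blocks the enzyme that activates NEDD8. Values are TPM, the transcript abundance of a gene per length and per library total, and since read numbers cannot be recovered from TPM, depth is unknown. Only 1 line, 1 dose of each drug and 1 time point were sequenced. The sources do not say whether replicate libraries were separate cultures, and p-values therefore reflect a spread that may be technical.

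NEDD8 is attached to cullins and switches on the ubiquitin ligases built on them. One of these ligases, made of cullin-3 and the adaptor KEAP1, keeps the transcription factor NRF2 (gene NFE2L2) low. NRF2 binds antioxidant response elements (ARE) and drives genes of redox and detoxification metabolism. OSGIN1 (oxidative stress induced growth inhibitor 1) is a known NRF2 target. GCKR is a regulatory protein that limits glucose phosphorylation in liver cells. HPD, hydroxyphenylpyruvate dioxygenase, makes homogentisate in the breakdown of tyrosine, mainly in liver. NMU is the precursor of neuromedin U, a secreted peptide that acts on the receptors NMUR1 and NMUR2, and in myeloid leukemia cells its gene is known to be regulated by MYB.

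In GENCODE release 44 on GRCh38, OSGIN1 (ENSG00000140961) spans chromosome 16 from 83931311 to 83966332 on the plus strand. GCKR (ENSG00000084734) spans chromosome 2 from 27496839 to 27523684 on the plus strand. HPD (ENSG00000158104) lies on the minus strand of chromosome 12 from 121839527 to 121863596, and NMU (ENSG00000109255) on the minus strand of chromosome 4 from 55595229 to 55636698. All 4 genes were matched to RefSeq promoter windows of GRCh38.p14, which run from 250 bases before to 50 bases after a start site, and HPD has 2 windows. The windows are shown because 3 of the genes were higher and 1 was lower with MLN4924, and capitals mark the matches to the motifs described after them.
OSGIN1, chr16:83952990-83953289, plus strand: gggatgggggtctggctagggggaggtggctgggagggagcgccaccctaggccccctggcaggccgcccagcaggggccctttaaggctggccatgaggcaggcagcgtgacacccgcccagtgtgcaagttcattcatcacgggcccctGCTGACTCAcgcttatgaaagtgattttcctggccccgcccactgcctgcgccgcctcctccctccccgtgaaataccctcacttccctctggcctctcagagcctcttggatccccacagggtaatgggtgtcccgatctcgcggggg
GCKR, chr2:27496589-27496888, plus strand: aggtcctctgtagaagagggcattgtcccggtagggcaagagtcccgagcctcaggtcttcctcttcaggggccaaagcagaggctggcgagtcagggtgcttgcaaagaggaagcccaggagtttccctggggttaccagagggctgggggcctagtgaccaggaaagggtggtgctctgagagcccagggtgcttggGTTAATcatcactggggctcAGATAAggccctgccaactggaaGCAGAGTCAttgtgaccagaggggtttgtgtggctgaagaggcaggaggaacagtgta
HPD, nearer window, chr12:121858810-121859109, minus strand: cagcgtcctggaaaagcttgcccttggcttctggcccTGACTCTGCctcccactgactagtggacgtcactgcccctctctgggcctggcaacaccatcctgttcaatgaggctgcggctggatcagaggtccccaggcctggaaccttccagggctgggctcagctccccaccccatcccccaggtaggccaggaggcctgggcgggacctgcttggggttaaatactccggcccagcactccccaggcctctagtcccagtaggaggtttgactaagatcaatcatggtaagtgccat
HPD, farther window, chr12:121888562-121888861, minus strand: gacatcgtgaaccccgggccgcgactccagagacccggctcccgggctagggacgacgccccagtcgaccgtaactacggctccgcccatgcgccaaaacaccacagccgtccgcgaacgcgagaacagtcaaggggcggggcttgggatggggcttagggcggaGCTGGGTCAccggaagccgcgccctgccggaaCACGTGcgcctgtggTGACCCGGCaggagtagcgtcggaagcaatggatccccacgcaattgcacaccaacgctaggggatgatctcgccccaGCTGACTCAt
NMU, chr4:55636744-55637043, minus strand: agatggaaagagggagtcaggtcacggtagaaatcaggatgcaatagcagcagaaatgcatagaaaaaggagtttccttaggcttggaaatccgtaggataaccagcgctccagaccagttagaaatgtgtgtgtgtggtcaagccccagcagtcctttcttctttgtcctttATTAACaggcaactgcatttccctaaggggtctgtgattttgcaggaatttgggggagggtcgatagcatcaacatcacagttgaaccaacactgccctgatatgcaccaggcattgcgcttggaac

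Both strands were searched for the ARE core TGACNNNGC, the extended ARE TGANTCAGC, the AP-1 motif TGANTCA, the E-box CACGTG, the CRE TGACGTCA, the HNF1 half-site GTTAAT, the GATA motif AGATAA and the TATA box TATAAA, a list drawn up with the windows in view. The OSGIN1 window held the extended ARE, read GCTGACTCA on the printed strand, with its first base at -99 from the start site, and an AP-1 match overlaps it. The GCKR window held the ARE core as GCAGAGTCA at -8, the HNF1 half-site at -51 and the GATA motif at -31. In the nearer HPD window the ARE core stood at -213. The farther HPD window lies upstream of the GENCODE gene and beside the start of PSMD9. It held ARE cores at -85 and -38, an E-box at -53 and the extended ARE at 40, again with an AP-1 match inside. Despite its name, the extended form is as long as the core, and its matches at OSGIN1 and HPD are not matches of the core. The NMU window held neither ARE form, and its single match was the HNF1 half-site on the other strand at -77.

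Such matches are not rare. Among 35116 RefSeq promoter windows of the same length, 13.3% held the ARE core, 1.36% the extended ARE, 7.71% AP-1, 7.26% the E-box, 6.88% the HNF1 half-site and 10.3% the GATA motif. CRE was held by 1.85% and the TATA box by 11.5%, and neither was found in the windows of the 4 genes. When the search was widened to 5000 bases before and 1000 after each start site, 18.4% of windows held the extended ARE and 87.4% the ARE core. The extended ARE at OSGIN1 and HPD was the same site as in the short window. The ARE core was then found at all 4 genes, with 2 matches at NMU and 2 at OSGIN1. The matches describe letters and are no measure of binding.

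OSGIN1 was low without MLN4924 and high with it. Its level was 5.40, 3.93 and 4.64 TPM in the control libraries and 84.8, 99.0 and 102 TPM with MLN4924. With imatinib it was 1.72, 1.67 and 2.78 TPM, and with imatinib + MLN4924 100.3, 93.6 and 119.5 TPM. The 6 libraries with MLN4924 were all above the 6 without it. Of all tested genes, 17.6% lay wholly above control with MLN4924 and 25.7% wholly above imatinib with imatinib + MLN4924. The imatinib libraries of OSGIN1 were all below the control libraries. In mean TPM, OSGIN1 was 20.5-fold higher with MLN4924 than in control and 50.8-fold higher with imatinib + MLN4924 than with imatinib. On the log2(TPM + 1) scale, on which all log2 differences here are given, these were 4.09 and 5.12 (SE 0.15 each), ranks 5 and 1 from the highest of 15478 genes tested. In control cells 33.2% of those genes had a lower mean than OSGIN1, and in MLN4924 cells 90.3%.

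GCKR was close to the lower end of the table in cells without MLN4924. Its level was 1.34, 0.16 and 0.31 TPM in control and 0.31, 0.67 and 1.21 TPM with imatinib. With MLN4924 it was 36.3, 43.1 and 49.7 TPM, and with imatinib + MLN4924 37.2, 34.1 and 59.96 TPM. The libraries with and without MLN4924 did not overlap, whereas control and imatinib libraries covered the same range. Of all tested genes, 17.6% lay wholly above control with MLN4924 and 25.7% wholly above imatinib with imatinib + MLN4924. The log2 differences were 4.84 for MLN4924 against control and 4.68 for imatinib + MLN4924 against imatinib (SE 0.29 each), ranks 3 and 2. The corresponding ratios of mean TPM, 71.3-fold and 59.9-fold, rest on baselines below 1 TPM whose SD was 106.5% of the mean in control and 62.1% with imatinib.

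HPD, like GCKR, had a baseline near 1 TPM. It was 0.52, 0.05 and 1.18 TPM in control, 2.92, 1.01 and 1.18 TPM with imatinib, 16.6, 23.9 and 22.5 TPM with MLN4924, and 39.5, 38.4 and 39.9 TPM with imatinib + MLN4924. HPD was therefore highest in the libraries with both drugs. These lay wholly above those with MLN4924 alone, as held for 17.6% of tested genes. For OSGIN1 and GCKR the MLN4924 and imatinib + MLN4924 libraries overlapped, although the mean TPM was in the same order. The mean of OSGIN1 was 104.5 TPM with imatinib + MLN4924 and 95.26 TPM with MLN4924, and that of GCKR 43.75 and 43.03 TPM. The log2 difference of HPD was 3.84 for MLN4924 against control and 3.96 for imatinib + MLN4924 against imatinib (SE 0.28 each). These are 36.0-fold and 23.1-fold in mean TPM and ranks 7 and 6.

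NMU went the other way, from a high level. In control it was 307.0, 327.4 and 353.6 TPM, above 97.7% of the genes tested. It was 93.3, 90.3 and 80.1 TPM with MLN4924, 140.0, 160.5 and 135.3 TPM with imatinib, and 115.0, 128.2 and 80.5 TPM with imatinib + MLN4924. Every treated library was below every control library, as held for 17.6% of tested genes with MLN4924 and 21.8% with imatinib + MLN4924, and the imatinib + MLN4924 libraries were all below the imatinib libraries, as held for 25.9%. NMU was 3.75-fold lower in mean TPM with MLN4924 than in control, a log2 difference of -1.89 (SE 0.14) and rank 27 from the lowest. Between imatinib + MLN4924 and imatinib the log2 difference was -0.45, and NMU ranked 3042 from the lowest gene. In bulk RNA, fewer cells of a type and less RNA per cell cannot be told apart.

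**Figure D1:**
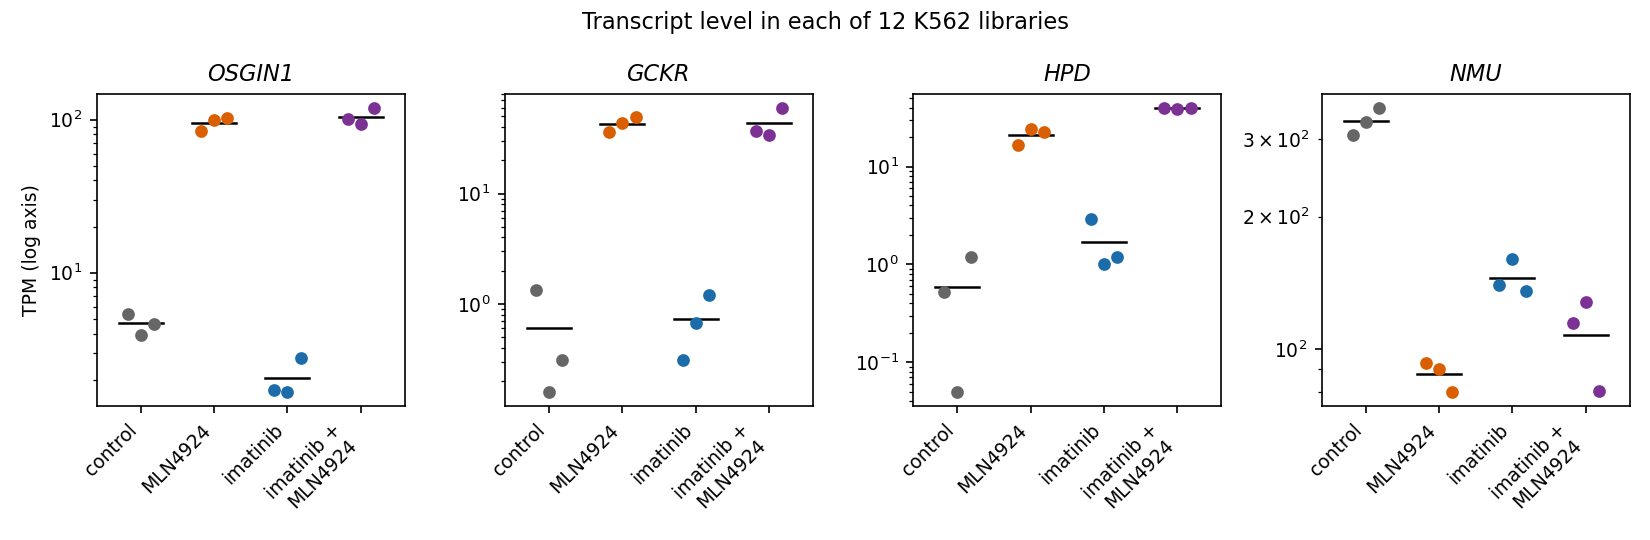
TPM on a log axis of OSGIN1, GCKR, HPD and NMU in each of the 12 K562 libraries, by group, with a black line at the group mean. OSGIN1, GCKR and HPD are high in the 6 libraries with MLN4924, and NMU is highest in the 3 control libraries, between 307.0 and 353.6 TPM.

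The effect of imatinib against control was tested with limma. It was not itself the ground of the choice, but the control and imatinib libraries were the baselines of that choice. The adjusted p-values of OSGIN1, NMU and HPD are therefore not independent of the choice, and they are read as a description. OSGIN1, NMU and HPD passed at an adjusted p under 0.05, where 53.8% of all tested genes did. OSGIN1 was lower by a log2 difference of -0.90 (SE 0.15, adjusted p = 0.000457) and NMU by -1.18 (SE 0.14, adjusted p = 5.24e-05), both with imatinib libraries wholly below control, as held for 30.3% of tested genes. HPD was higher by 0.77 (SE 0.28, adjusted p = 0.0378), but its control and imatinib libraries overlapped. The HPD call was lost without the filter on low values (adjusted p = 0.0918), in a fit of the 6 libraries compared (0.114), without control replicate 1 (0.0753), without control replicate 2 (0.152) and without imatinib replicate 1 (0.157). GCKR reached 1 TPM in 2 of the 6 libraries without MLN4924 and passed the filter of 3 libraries only through the groups where it is high, so its log2 difference of 0.15 (SE 0.29) is given with no test.

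Both groups with MLN4924 served in the choice, and the comparison between them is a description with no test. The log2 difference of imatinib + MLN4924 against MLN4924 was 0.89 for HPD (SE 0.28), 0.27 for NMU (SE 0.14), 0.13 for OSGIN1 (SE 0.15) and -0.01 for GCKR (SE 0.29). The HPD libraries with both drugs lay wholly above those with MLN4924, as held for 17.6% of tested genes, and the groups of the other 3 genes overlapped. Without imatinib + MLN4924 replicate 3, its lowest library of that group at 80.5 TPM, NMU had a log2 difference of 0.46.

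Had the log2 differences of the single drugs added up, imatinib + MLN4924 cells would have held 50.5 TPM of OSGIN1 and 38.2 TPM of NMU. The measured geometric means were 103.9 and 105.9 TPM, a departure of 1.03 (SE 0.21) for OSGIN1 and 1.45 (SE 0.20) for NMU on the log2 scale. For GCKR the sum gave 47.4 TPM and 42.4 TPM was measured, a departure of -0.16 (SE 0.41). For HPD it gave 36.1 TPM against 39.3 TPM measured, a departure of 0.12 (SE 0.40) that read -0.81 with a pseudocount of 0.1 TPM. These departures use the MLN4924 libraries of the choice and were not tested, and the comparisons share libraries with each other.

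**Figure D2:**
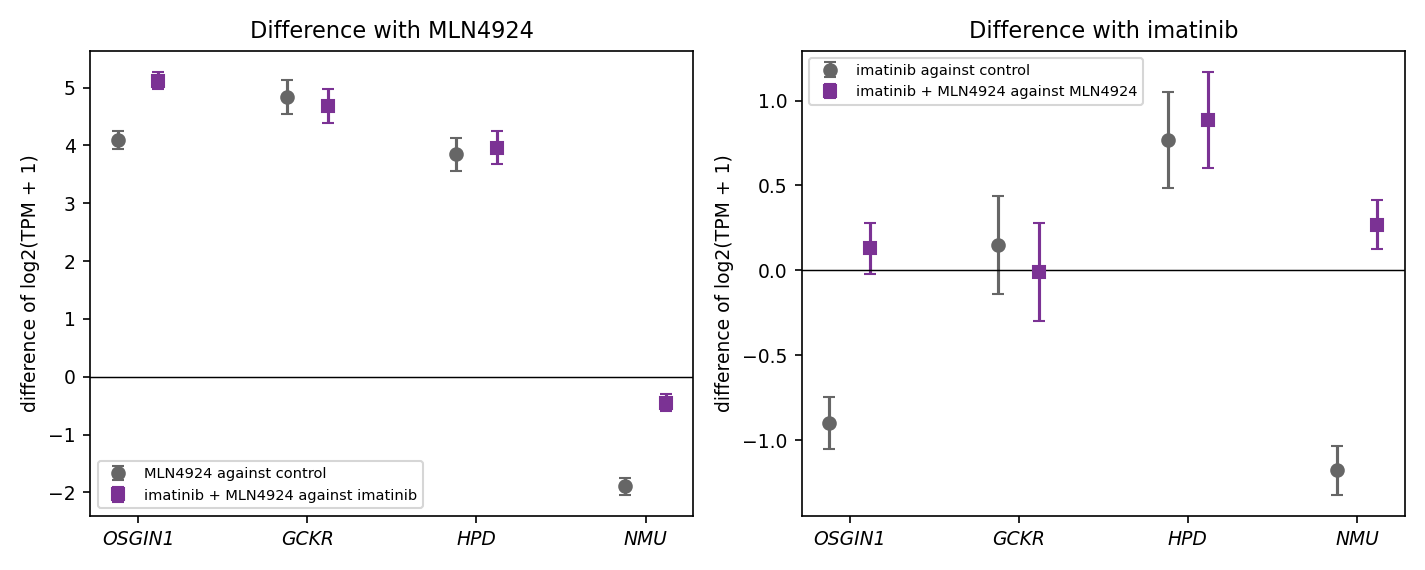
Log2 difference of each gene, with the SE of the fit as error bars, for the comparisons that add MLN4924 and for those that add imatinib. With MLN4924 the values of OSGIN1, GCKR and HPD lie between 3.84 and 5.12, and with imatinib all 4 genes lie between -1.18 and 0.89.

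The nearest protein-coding gene on each side was compared with each of the 4. FNDC4, which lies 1639 bases from GCKR on the opposite strand, is transcribed away from it and encodes a membrane protein. It held 3.21, 3.57 and 2.76 TPM in control and 11.9, 15.3 and 15.3 TPM with MLN4924, 3.77, 4.02 and 2.34 TPM with imatinib and 12.3, 9.48 and 18.1 TPM with both. FNDC4 rose by a log2 difference of 1.86 with MLN4924 against control (SE 0.22, adjusted p = 0.000312) and of 1.69 with imatinib + MLN4924 against imatinib (adjusted p = 0.00017), a background of 14.5% and 43.0% of genes called. C2orf16, on the other side of GCKR, had log2 differences of -0.41 and -0.49 and did not pass in either comparison (adjusted p = 0.316 and 0.135).

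MLYCD, malonyl-CoA decarboxylase, shares 20135 bases and the strand with the annotated body of OSGIN1, so reads in that stretch cannot be assigned with certainty. MLYCD ends at 83951445, before the RefSeq start site of OSGIN1 at 83953240. It held 0.56 to 2.21 TPM and fell where OSGIN1 was higher, by 0.68 with MLN4924 against control (adjusted p = 0.0067) and by 0.78 with imatinib + MLN4924 against imatinib (adjusted p = 0.001). NECAB2, on the other side, stayed at or below 0.07 TPM. SETD1B, a histone methyltransferase gene beside HPD, rose by 0.51 (adjusted p = 0.00334) and 0.66 (adjusted p = 0.000225). The log2 differences of PSMD9, a proteasome assembly gene next to the farther HPD window, were 0.13 (adjusted p = 0.475) and -0.24 (adjusted p = 0.0963). Beside NMU, PDCL2 held at most 0.97 TPM and EXOC1L was listed at 0.

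**Figure D3:**
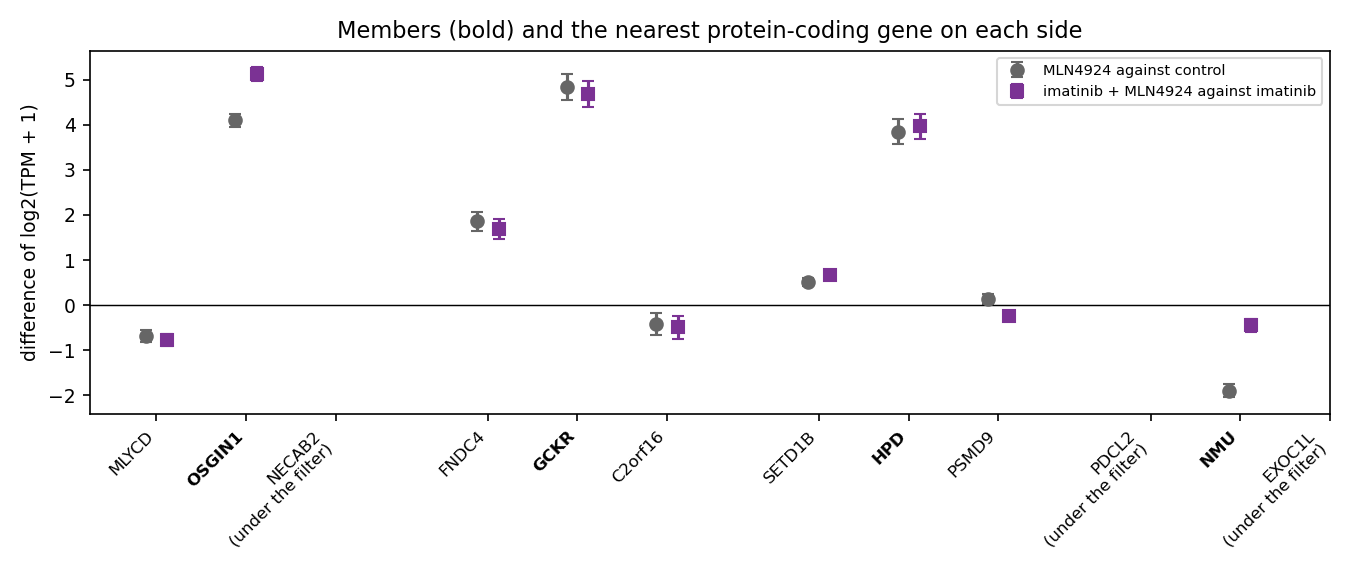
Log2 difference with SE of each of the 4 genes and of the nearest protein-coding gene on each side, for MLN4924 against control and imatinib + MLN4924 against imatinib. FNDC4, at 1.86 and 1.69, is the neighbour with the highest values, and genes under the filter on low values have no point.

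OSGIN2, the paralogue of OSGIN1, had smaller log2 differences than OSGIN1. It held 11.7, 11.7 and 13.3 TPM in control, 19.5, 23.5 and 21.0 TPM with MLN4924, 9.28, 8.90 and 11.1 TPM with imatinib and 14.1, 15.6 and 24.5 TPM with both. It rose by 0.75 with MLN4924 (SE 0.17, adjusted p = 0.0132) and by 0.79 on top of imatinib (adjusted p = 0.00344). HPDL, the paralogue of HPD, stayed at or below 0.09 TPM.

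Of 31 NRF2 targets in a list without the 4 genes, drawn up with earlier results of these data known, 27 were tested. With MLN4924 against control 26 rose and 1 did not pass, where 7.36% of all tested genes rose, and the median log2 difference was 1.005 against 0.00 over all genes. On top of imatinib 25 rose, where 22.6% of all genes did, and 1 fell, with a median of 1.32. AKR1C1, an aldo-keto reductase, held 94.6 to 113.4 TPM in control and 827.9 to 1193 TPM with MLN4924, and rose by 3.32 (adjusted p = 5.47e-08). TXNRD1, thioredoxin reductase, rose by 1.996 (adjusted p = 2.77e-06), GCLM, a subunit of the enzyme of glutathione synthesis, by 1.80 (adjusted p = 1.04e-06), and NQO1, a quinone reductase, by 1.61 (adjusted p = 2.04e-06). SLC6A9, a glycine transporter, did not pass with MLN4924 and fell by 1.43 on top of imatinib (adjusted p = 8.94e-05), and FTH1, ferritin heavy chain, did not pass there (log2 difference 0.22). HMOX1 was listed at 0.

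With imatinib against control, 14 of the 27 NRF2 targets fell and 7 rose (median -0.32), where 53.8% of all tested genes were called in either direction. In the presence of MLN4924 3 fell and 4 rose (median -0.14), where 16.2% of all genes were called. NQO1 and TXNRD1, like OSGIN1, were lower with imatinib, by log2 differences of -0.86 (adjusted p = 1.98e-05) and -0.95 (adjusted p = 5.95e-05). NFE2L2, the gene of NRF2 itself, had a log2 difference of 0.17 with MLN4924 (adjusted p = 0.361), rose by 0.44 on top of imatinib (adjusted p = 0.00751) and fell by 0.38 with imatinib (adjusted p = 0.0126). KEAP1 had 0.17 (adjusted p = 0.0979), 0.36 (adjusted p = 0.00101) and -0.11 (adjusted p = 0.173) in the same comparisons. Protein was not measured.

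OSGIN1 is named for growth inhibition, and 15 of 16 listed p53 targets and growth arrest genes were tested. With MLN4924 1 rose, the cell cycle inhibitor CDKN1A (log2 difference 1.31, adjusted p = 0.00132), and 1 fell, GADD45A (-0.41, adjusted p = 0.00355), where 14.5% of all tested genes were called. On top of imatinib, where 43.0% of all genes were called, CDKN1A (0.97) and the kinase PLK3 (1.13) rose, and BTG2 (-1.16), BBC3 (-0.86), SESN2 (-0.38) and XPC (-0.21) fell.

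Around GCKR, 14 of 20 listed genes of glucose uptake and phosphorylation were tested. With MLN4924 3 fell and 11 did not pass, beside 14.5% of all tested genes called. Those that fell were the fructokinase KHK (-0.84, adjusted p = 0.000834), PFKFB2 (-0.55, adjusted p = 0.00675) and PFKM (-0.43, adjusted p = 0.00904), with a median of -0.04. On top of imatinib 4 rose and 5 fell, beside 43.0% of all genes called, among them the glucose transporters SLC2A3 (2.64) and SLC2A1 (-1.05). HK1, the hexokinase found in most tissues, held 202.9 to 284.7 TPM over the 12 libraries.

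Around HPD, 9 of 12 genes listed for tyrosine and phenylalanine breakdown were tested. With MLN4924 1 rose, the aminotransferase GOT1 (0.38, adjusted p = 0.00987), and 1 fell, QDPR (-0.58, adjusted p = 0.00361), with a median of -0.06, beside 14.5% of all tested genes called. On top of imatinib, where 43.0% of all genes were called, 6 rose, FAH (1.16), the last enzyme of the pathway, among them, and 2 fell, GSTZ1 (-0.98) and FAHD1 (-0.70). TAT, an aminotransferase of the step before HPD, was listed at 0 and HGD, the dioxygenase after HPD, reached 0.27 TPM. GOT1 held 32.2 to 81.0 TPM over the 12 libraries and GOT2, on the same list, 115.8 to 209.8 TPM.

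GCKR and HPD are best known from liver, so liver genes were examined. Of 24 listed liver-enriched genes, AFP and FOXA1 passed the filter and neither passed with MLN4924, where 14.5% of all tested genes were called. The log2 difference there was 0.81 for AFP (adjusted p = 0.0542) and -0.21 for FOXA1 (adjusted p = 0.559). AFP held 0.24 to 5.12 TPM. Its log2 difference was -0.86 with imatinib against control (adjusted p = 0.0133) and 1.70 on top of imatinib (adjusted p = 0.000409). In these 2 comparisons 53.8% and 43.0% of all tested genes were called. Of 8 hepatocyte markers 0 reached 1 TPM in any library, and APOB, TTR, SERPINA1 and FGB were at 0 in all libraries. Their summed level was 0.02 to 0.50 TPM in control, 0.00 to 0.12 TPM with MLN4924, 0.19 to 0.81 TPM with imatinib and 0.05 to 0.49 TPM with both. All 10 K562 and erythroid markers were above 1 TPM, with sums of 15740 to 16280 TPM in control, 13930 to 16180 with MLN4924, 42470 to 57740 with imatinib and 16370 to 23230 with both. Their part in the differences of NMU and OSGIN1 was not tested.

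Around NMU, 9 of 17 genes were tested, from a list of related peptides, their receptors, enzymes of peptide processing and the MYB family of transcription factors. The receptor NMUR1 reached 0.09 TPM, and NMUR2 and the related peptide gene NMS were listed at 0. With MLN4924 the carboxypeptidase CPD rose (0.53, adjusted p = 0.0127), and MYB and the protease PCSK6 (-0.37, adjusted p = 0.0221) fell, beside 14.5% of all tested genes called. MYB held 105.3, 118.6 and 123.7 TPM in control, 67.3, 70.2 and 60.4 TPM with MLN4924, 25.9, 28.7 and 41.9 TPM with imatinib and 57.6, 54.4 and 49.9 TPM with both. Like NMU it was highest in control, but its lowest group was imatinib and that of NMU was MLN4924. MYB fell by 0.80 with MLN4924 (adjusted p = 0.00417) and by 1.84 with imatinib (adjusted p = 4.93e-06), and rose by 0.76 with imatinib + MLN4924 against imatinib (adjusted p = 0.00191), a comparison in which NMU had a log2 difference of -0.45.

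Across the 12 libraries, the log2 levels of OSGIN1 and GCKR had a Pearson's r of 0.98, OSGIN1 and HPD of 0.94 and GCKR and HPD of 0.96, and NMU had an r of -0.71 with OSGIN1, -0.81 with GCKR and -0.82 with HPD. These values describe 4 groups of libraries, not 12 independent conditions. Over 11731 other tested protein-coding genes, an r above 0.95 was reached by 67 genes with OSGIN1, 48 with GCKR, 28 with HPD and 1 with NMU. The 5 genes most alike to OSGIN1 were GSR (0.992), SRXN1 (0.992), TDP2 (0.990), CDC20 (0.99) and VSIG10L (0.989). GSR is glutathione reductase and SRXN1 is sulfiredoxin, both on the NRF2 list. GSR held 56.1 to 60.01 TPM in control, 149.1 to 179.8 with MLN4924, 32.6 to 42.3 with imatinib and 159.1 to 185.0 with both.

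To GCKR the most alike were TNFAIP8L1 (0.995), SCRN1 (0.992), AKR1C1 (0.988), FBXO30 (0.987) and TDP2 (0.985). SCRN1 had a low baseline as GCKR did, with 0.42 to 0.63 TPM in control and 5.45 to 5.99 TPM with MLN4924. Among the 5 most alike to HPD were SLCO2B1 (0.982), ABCC3 (0.976), FBXO30 (0.975) and NDRG2 (0.975). The transporter ABCC3, on the NRF2 list, was highest with both drugs as HPD was, with 4.11 to 5.12 TPM with MLN4924 and 8.17 to 12.1 TPM with imatinib + MLN4924. To NMU they were CAMKK2 (0.964), IMPDH2 (0.945), PKP3 (0.939), TPCN1 (0.923) and CLK2 (0.922). PKP3, a plakophilin, held 58.1 to 65.9 TPM in control, 25.6 to 27.6 with MLN4924, 45.5 to 46.8 with imatinib and 33.3 to 36.5 with both. Genes alike were picked on these values, so no test is given for the likeness.

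**Figure D4:**
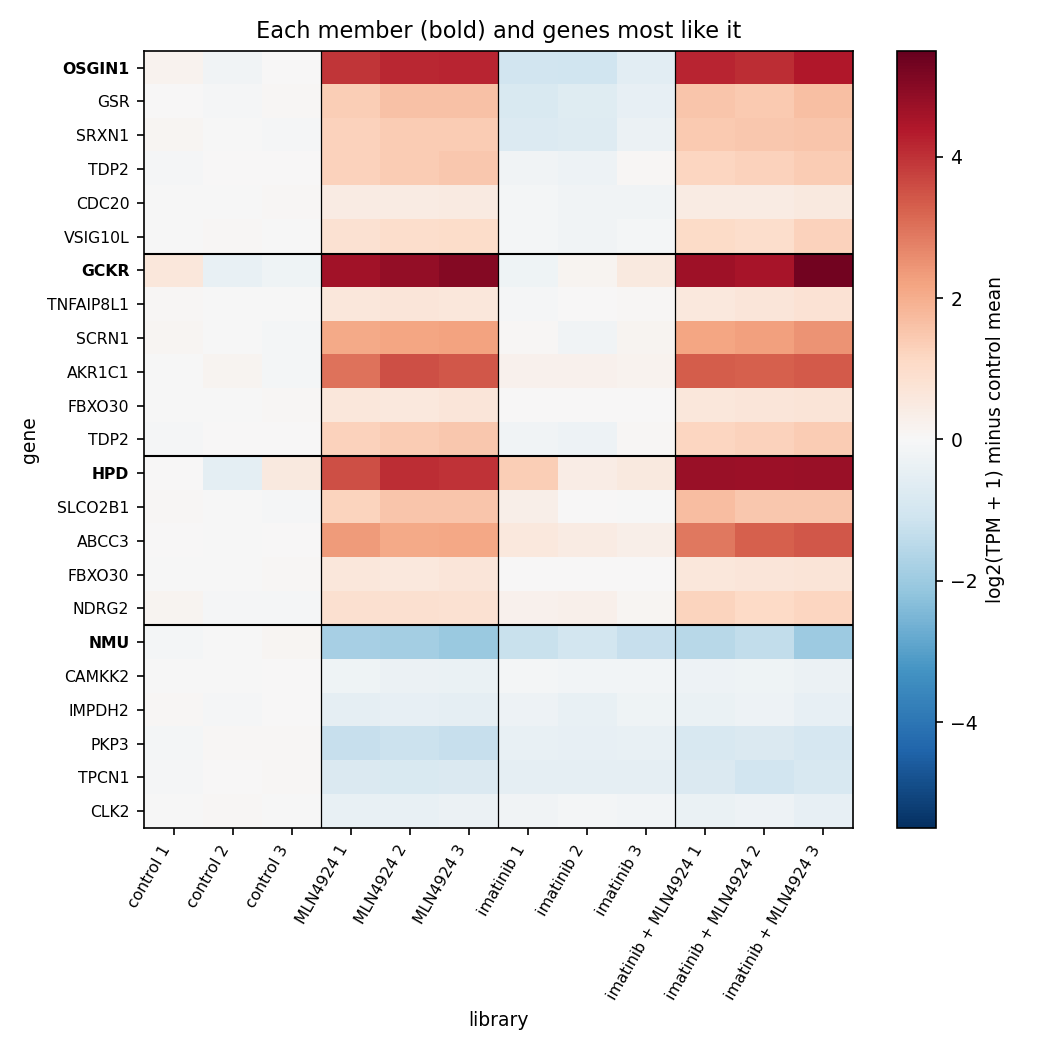
Log2(TPM + 1) minus the control mean in each of the 12 libraries, for the 4 genes (bold) and genes among the 5 most alike to each. OSGIN1, GCKR and HPD and the genes alike to them are above control in the 6 libraries with MLN4924, and NMU and the genes alike to it are below control in the 9 treated libraries.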

How the data were processed

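RNA of K562 cells was sequenced in 12 libraries, 3 per group. Read trimming (fastp), alignment to hg38 (HISAT2) and transcript quantification (StringTie) were done by the authors, and the deposited values are TPM per gene. featureCounts and GRCh38 are listed in the submitters' notes too, although no counts are in the table. TPM is relative to the library total, values below 0.01 are rounded away, and 0 can stand for a failed estimate. The table has 62232 lines, of which 691 are assembled loci, left out here, and 61369 identifiers matched GENCODE release 44.

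The 15478 Ensembl genes reaching 1 TPM in 3 or more libraries were tested. One coefficient per group was fitted to log2(TPM + 1) of all 12 libraries with limma 3.58.1 (trend) in R 4.3.3, with Benjamini-Hochberg adjustment over all tested genes and a threshold of 0.05, and Python 3.11.15 did the rest. All 4 genes passed the filter, GCKR only through the MLN4924 libraries. The fits were tested on simulated data. The 4 genes and the lists were chosen with earlier results of these data known. OSGIN1, HPD and NMU were therefore tested only for imatinib against control, and GCKR in no comparison. The control and imatinib libraries were baselines of the choice of genes, so these tests are not independent of it. Named with values were the 4 genes, their paralogues, the nearest protein-coding gene on each side, the 5 protein-coding genes of highest r to each, NFE2L2, KEAP1, MYB, up to 5 members per list with the largest log2 difference past the threshold in MLN4924 against control or imatinib + MLN4924 against imatinib, and list members where a count is 5 or fewer. Other members named were chosen after their values were seen. A few genes that these rules name are not reported here. Alternatives were another pseudocount, no or a stricter filter, median-of-ratios scaling, only the 6 libraries compared, the replicate number as a block and each library left out in turn. No 2 libraries of a group were copies, since at most 1.51% of values were identical.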

Additional observations from a re-analysis of the deposited data

Results flagged for a closer look

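The log2 difference made by imatinib was compared between cells with and without MLN4924 (the interaction term of the limma fit), for genes named other than OSGIN1, GCKR, HPD and NMU. A value above 0 means that imatinib's difference was higher with MLN4924 present than without it. Groups of 3 libraries were too small to look for single outlying libraries. MYB, the known regulator of NMU, had an interaction of 1.56 (adjusted p = 0.00246), and 16.4% of all tested genes passed.

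The other genes were named for their difference in MLN4924 against control or in imatinib + MLN4924 against imatinib, and the latter contains the interaction, so their values are a description of genes chosen in part for it, with no test. Genes named only for their likeness to the 4 genes were left out. Of the 33 genes examined, only the 15 with an interaction adjusted p under 0.05 are listed, MYB included. Of these, 11 were above 0 and 4 below. Of the NRF2 targets, NQO1 had 0.69, TXNRD1 0.67 and GCLM 0.42, while AKR1C1 (-0.22) and ABCC3 (0.58) did not reach that limit. On the list for tyrosine and phenylalanine breakdown, MIF had 0.99, FAH 0.89, GOT1 0.41, GSTZ1 -0.76 and FAHD1 -0.42. Among glucose genes, SLC2A3 had 2.002, G6PC3 0.94 and SLC2A1 -0.97. The protease FURIN had -0.81, and the growth arrest genes PLK3 and GADD45A had 1.25 and 0.40.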

How the results depend on the processing

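Of 124 values under settings other than leaving out a library, 113 kept their direction and their side of the threshold or stayed within the spread of replicates. The number of genes called for imatinib + MLN4924 against MLN4924 was 2508, 1515 with no filter, and 1028 to 3271 with 1 library left out. It fell to 1418, 1247 and 1312 without MLN4924 replicates 1, 2 and 3, and to 1028 and 1032 without imatinib + MLN4924 replicates 1 and 2. For MLN4924 against control it was 2239 and ran from 1364 to 2668, with 1432 without control replicate 2 and 1364 and 1430 without MLN4924 replicates 2 and 3. The causes were not tested, beyond fewer libraries in each such fit.

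For imatinib against control, the log2 difference of HPD, 0.77, did not pass with no filter (adjusted p = 0.0918) or with only the 6 libraries compared (0.114), and ran from 0.47 to 1.03 with 1 library left out, with adjusted p from 0.0103 to 0.157. Without a test, GCKR ran from -0.05 to 0.46. For imatinib + MLN4924 against MLN4924, HPD ran from 0.73 to 0.99, NMU from 0.13 to 0.46, OSGIN1 from 0.03 to 0.20 and GCKR from -0.26 to 0.14, so the sign of GCKR was not fixed in either comparison.

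With a pseudocount of 0.1 TPM the differences of low genes grew. MLN4924 against control became 4.33 for OSGIN1, 6.32 for GCKR and 5.41 for HPD, imatinib + MLN4924 against imatinib became 5.63, 5.83 and 4.60, and the departure from additivity became 1.30 for OSGIN1 and -0.81 for HPD. Median-of-ratios scaling changed no call.

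For libraries with the same replicate number, deviations from the group means had r from -0.06 to 0.19 over 18 pairs. The highest was replicate 3 of imatinib and imatinib + MLN4924. Libraries with different numbers were not compared, so whether the numbers pair the samples was not tested. With the replicate block, 8260 genes were called for imatinib against control, 2547 for imatinib + MLN4924 against MLN4924, 2205 for MLN4924 against control and 6606 for imatinib + MLN4924 against imatinib, and the calls of OSGIN1, HPD and NMU for imatinib against control did not change. Without depth, how far levels below 1 TPM of GCKR and HPD can be trusted cannot be stated.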
